A study of Arabidopsis thaliana with 12 samples.

Results

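Seedlings of Arabidopsis thaliana, a small plant of the cabbage family, that carry the mutant allele brm-1 were compared with wild-type (WT) seedlings. The comparison took the 3 libraries labelled brm-1 and the 3 labelled WT, 6 of the 12 libraries of the study, and every locus of the deposited count table. Of 29420 loci, 22076 passed the filter on low counts and were tested, and 4002 held no count in the 6 libraries. All plants were 14-day-old seedlings raised under long days on a Murashige and Skoog medium, and whole-seedling RNA was sequenced. By their labels, brm-1 plants carry the brm-1 allele of BRM and WT plants do not. The sample titles do not give the number of copies. The other 6 libraries come from brm-1 ref6-1 and ref6-1 plants, which share ref6-1, a mutant allele of REF6. They gave a second measurement of BRM loss. The labels speak of biological replicates but also of RNA of replicates being pooled, so the spread behind the p-values is that between libraries, and how much of it is biological cannot be told.

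BRM, or BRAHMA, is an ATPase of plant SWI/SNF complexes, which use the energy of ATP to slide or evict nucleosomes and so change which DNA is open to other proteins. It is best known in seedlings for its work on flowering and leaf development and for acting against Polycomb repression. REF6 removes the methyl marks that Polycomb proteins place on lysine 27 of histone H3.

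BRM transcripts (AT2G46020, chromosome 2, 18922533 to 18932055 in the TAIR10.1 annotation) were counted 43, 50 and 74 times in brm-1 replicates 1, 2 and 3, against 3282, 2998 and 3067 times in WT. The brm-1 libraries were all far below the WT libraries. BRM fell by 5.77 ± 0.56 on the log2 scale (SE, n = 3 per group, edgeR quasi-likelihood test, adjusted p = 0.000214). The same test and adjustment over all 22076 genes stand behind every adjusted p that follows, and all log2 changes are brm-1 over WT with their SE unless another pair is named.

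Loss of BRM moved a large part of the transcriptome by small amounts and a small part by large ones. At an adjusted p under 0.05, 4193 genes (19.0%) were called, 1960 higher (8.88%) and 2233 lower (10.1%) in brm-1. The median log2 change was 0.33 among the genes that rose and -0.45 among those that fell. The 3 brm-1 libraries did not overlap the 3 WT libraries in 36.0% of genes, and 31.5% had an unadjusted p under 0.05. A change of at least 2-fold was seen in 714 genes (3.23%), which is 11.8% of the rises and 21.6% of the falls. Without brm-1 replicate 2, 1255 genes were higher and 1450 were lower, 2705 in all. The libraries held 10308025 to 11768789 counts in brm-1 and 11069310 to 11860892 in WT, and no locus exceeded 6707 counts in a library, so differences among very abundant transcripts may be compressed. On the first principal component of the 6 libraries, brm-1 lay between 27.01 and 40.39 and WT between -36.55 and -29.71.

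The labelled tissue was checked against cell type markers. Photosynthetic leaf markers summed to 763 to 840 counts per 1000000 library counts (CPM) in brm-1 and 739 to 788 CPM in WT. Of 8 leaf markers 5 were higher, but 1 without brm-1 replicate 3 and 2 without WT replicate 1. Root markers summed to 381 to 418 CPM in brm-1 and 429 to 478 CPM in WT. PER64 and PYK10 were lower among 9 tested (1 to 3 lower and up to 1 higher with 1 library left out). PYK10 alone, with means of 191 CPM in brm-1 and 221 CPM in WT, made up a large part of the sums. Of the root markers not called, EXPA7, SHV2 and CASP1 had negative log2 changes and PRP3 stood at -0.01. IRT1, NRT2:1 and TIP2;3 had positive ones. Guard cell markers summed to 198 to 219 CPM in brm-1 and 233 to 252 CPM in WT, with 1 of 6 lower (2 without brm-1 replicate 1). Seed storage markers summed to 15.8 to 50.5 CPM in brm-1 and 6.99 to 8.08 CPM in WT, and SESA3 was at 0 throughout. Of 7 tested seed markers 5 were higher, but 2 without brm-1 replicate 2 or WT replicate 3, and 3 without brm-1 replicate 1, WT replicate 1 or WT replicate 2. Floral organ markers summed to 12.7 to 14.6 CPM in brm-1 and 7.75 to 9.23 CPM in WT, with AG higher among 3 tested. The pollen markers VGD1, VGDH1 and PGA4 were at 0 in both groups. The pollen marker AGP11 held 5, 9 and 4 counts in brm-1, against 3, 0 and 0 in WT, and was not tested. TUA1, the only pollen marker tested, had means of 52.5 CPM in brm-1 and 55 CPM in WT and was not called. In whole seedlings, fewer cells of a type and less RNA per cell cannot be told apart, and the part of these shifts in the results below was not tested.

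The 20 largest rises and 20 largest falls were chosen among called genes with a symbol and a mean of at least 2 CPM. Their groups also had to be free of overlap, so lack of overlap in these genes is part of the choice. The rises held genes of surface wax, auxin synthesis and transcription control beside the flowering and seed genes for which brm mutants are known. WSD1 (AT5G37300, chromosome 5, 14767426 to 14770396), which makes wax esters, had 12.9, 14.9 and 10.6 CPM in brm-1, against 2.56, 1.1 and 1.99 CPM in WT. It rose by 2.75 ± 0.27 (adjusted p = 3.96e-05). NAC096 (AT5G46590, chromosome 5, 18905258 to 18907052), a transcription factor of the NAC family, had 16, 18.3 and 13.7 CPM in brm-1, against 2.05, 2.57 and 3.89 CPM in WT, and rose by 2.50 ± 0.21 (adjusted p = 1.52e-05). YUC5, a flavin monooxygenase of auxin synthesis, had 17.8, 18.4 and 16.4 CPM in brm-1, against 4.6, 4.31 and 3.8 CPM in WT. YUC5 rose by 2.04 ± 0.14 (adjusted p = 4.34e-06). Smaller pools rose as well, among them CYP706A3 (2.41 ± 0.28), the homeobox gene ATHB54 (2.33 ± 0.27), the inositol oxygenase gene MIOX4 (2.28 ± 0.54), the glutamate receptor-like gene GLR2.6 (1.90 ± 0.31) and TIM44-1 of the mitochondrial import machinery (1.96 ± 0.40). TPS03, a terpene synthase gene, rose by 2.39 ± 0.75 with an adjusted p of 0.0443, which reached 0.157 without brm-1 replicate 2, 0.107 without WT replicate 1, 0.0936 without WT replicate 3, 0.0661 without brm-1 replicate 3 and 0.0597 without brm-1 replicate 1. The call also ended with the replicate block (0.0713), without a filter (0.0529) and without brm-1 ref6-1 replicate 3 (0.0591), a range of 0.0234 to 0.157 over the alternatives.

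The 20 largest falls, chosen in the same way, held enzymes, carriers, receptors and genes of unknown role. CYP71A20 (AT4G13310, chromosome 4, 7750305 to 7753210), a cytochrome P450 gene, had 0.169, 0 and 0.195 CPM in brm-1, against 12.1, 8.44 and 8.23 CPM in WT, and fell by 6.18 ± 0.56 (adjusted p = 2.6e-05). MRD1, of unknown role, had 2.03, 1.46 and 1.56 CPM in brm-1, against 50.6, 49.3 and 51 CPM in WT, and fell by 4.88 ± 0.42 (adjusted p = 6.15e-05). It overlaps HEI10 on the other strand, so its reads may be shared. ARD3, an acireductone dioxygenase of the methionine salvage cycle, had 1.52, 0.91 and 0.586 CPM in brm-1, against 12.4, 18.3 and 21 CPM in WT. ARD3 fell by 4.05 ± 0.41 (adjusted p = 6.5e-05). AIR1, an auxin-induced gene of the lipid-transfer type known from root cultures, had 1.78, 1.27 and 2.05 CPM in brm-1, against 13.7, 20.5 and 17.2 CPM in WT, a log2 change of -3.33 ± 0.26 (adjusted p = 9.75e-06). ESP, the epithiospecifier protein that steers glucosinolate breakdown towards nitriles, had 3.39, 2.27 and 2.83 CPM in brm-1 and 14.9, 20.3 and 6.87 CPM in WT. The WT libraries were spread widely, and ESP was 4.92-fold lower (SE 0.44 on the log2 scale, adjusted p = 0.00413). Falls of the same order were measured for the receptor-like kinase gene CRK23 (-3.02 ± 0.57), the cation exchanger gene CHX2 (-3.06 ± 0.56), the cytokinin oxidase gene CKX2 (-2.90 ± 0.46), the phosphatase gene PAP20 (-2.62 ± 0.53), BNQ3 (-2.50 ± 0.37) and the glyoxalase gene GLYI7 (-2.18 ± 0.43). The abscisic acid receptor gene PYL3 fell by 2.21 ± 0.57 (adjusted p = 0.0181), but was not called without brm-1 replicate 2 (0.0792, the highest over its alternatives) or brm-1 replicate 1 (0.0658), nor without WT replicate 1 (0.067) or 3 (0.0576).

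**Figure D1:**
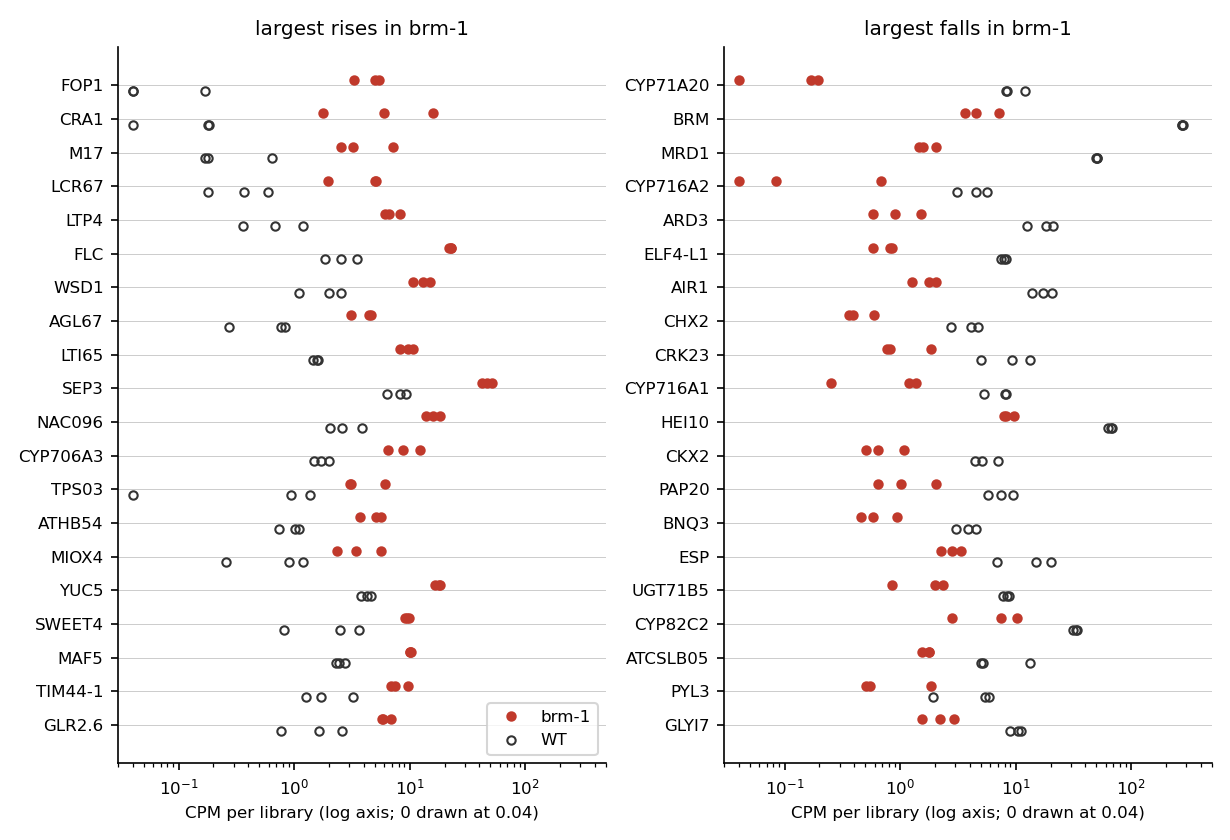
Expression in each library (CPM, log axis, 0 drawn at 0.04) of the 20 genes with the largest rises (left) and the 20 with the largest falls (right) in brm-1. Filled points are the 3 brm-1 libraries and open points the 3 WT libraries. In WSD1 the brm-1 libraries lie between 10.6 and 14.9 CPM and the WT libraries between 1.1 and 2.56 CPM.

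Genes were then read by family and function. Of 84 families and lists, 37 had at least 1.5 times the share of called members found over all genes (19.0%), 12 had at most 2/3 of it, and 35 lay between with 14.1 to 28.4%. Families described here were picked by that share, so their counts are a description and not a test. The highest shares were in SWEET sugar transporters (66.7%), efflux carriers of the MATE family (48.9%), chlorophyll synthesis (47.4%), cuticular wax and cutin (45.8%), GDSL lipases (45.5%) and homeobox HB genes (44.9%). The lowest were in GH3 genes and chaperones of the endoplasmic reticulum, with no member called, and in ribosomal proteins (0.755%).

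**Figure D2:**
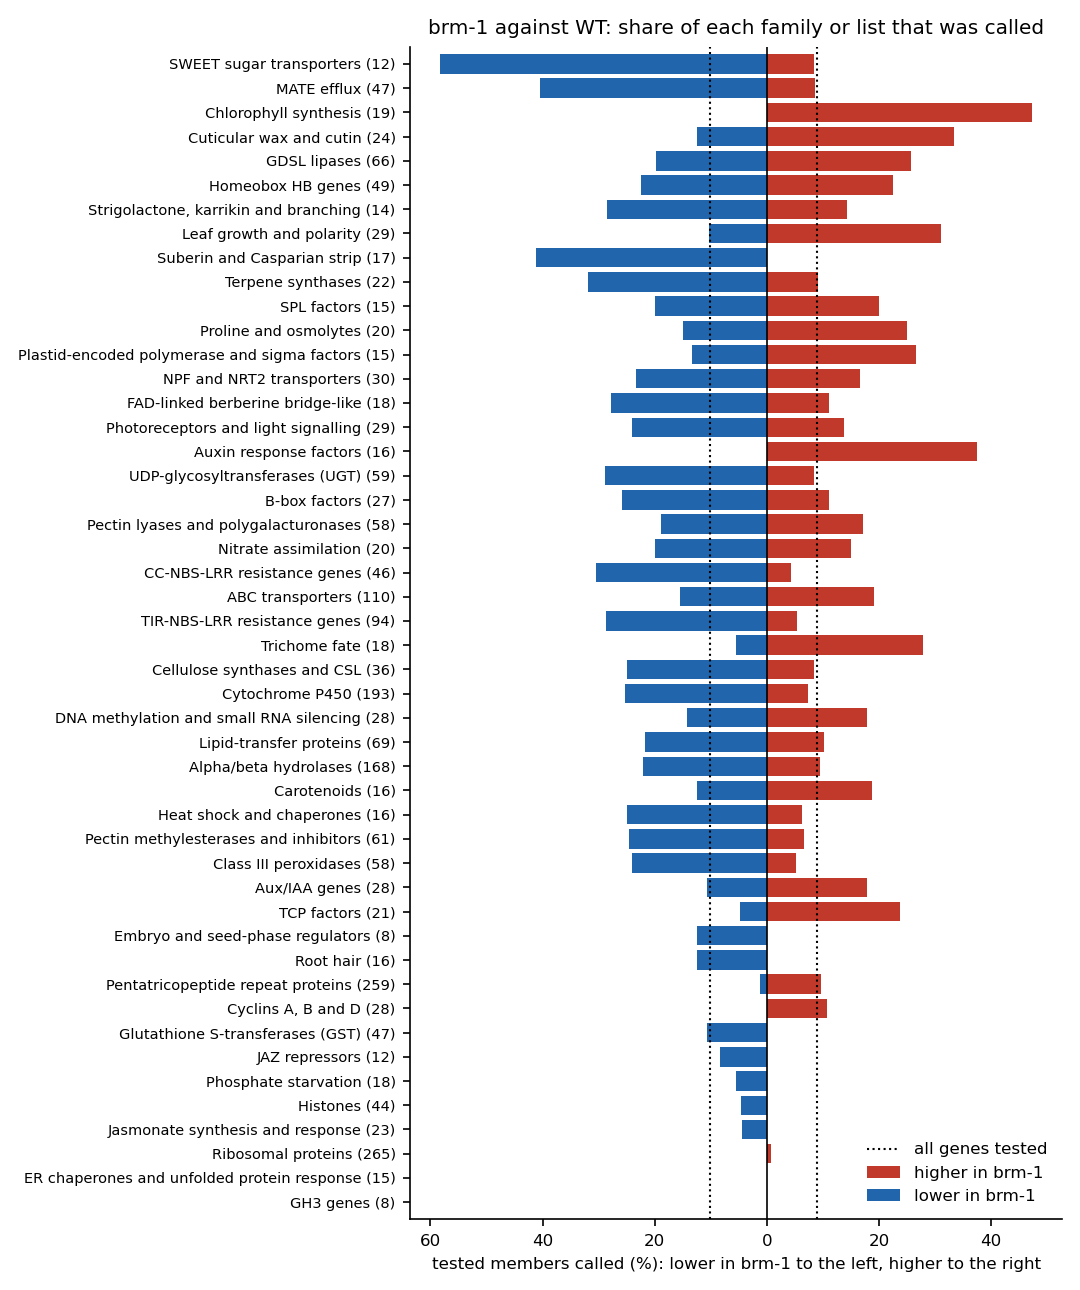
Share of the tested members of 48 described families and lists that was called lower (left, blue) or higher (right, red) in brm-1, in percent. The dotted lines give the share over all genes tested, 10.1% lower and 8.88% higher. Chlorophyll synthesis and auxin response factors have bars on the higher side only, and suberin genes on the lower side only.

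Sugar transport gave the highest share. SWEET proteins let sucrose, glucose or fructose pass through membranes along the gradient. Of 12 tested genes, 7 fell and SWEET4 rose, and no library left out moved these counts by more than 1.5 times. SWEET4 (AT3G28007), a hexose carrier, had 9.91, 9.19 and 9.38 CPM in brm-1, against 2.47, 3.67 and 0.814 CPM in WT, and rose by 2.03 ± 0.39 (adjusted p = 0.00328). SWEET10 (AT5G50790) had 3.81, 5.64 and 4.3 CPM in brm-1, against 14.1, 17.1 and 14.9 CPM in WT, and fell by 1.75 ± 0.27 (adjusted p = 0.0011). SWEET2 (AT3G14770), which is known to hold sugar in root vacuoles, had 19.5, 18.7 and 18.5 CPM in brm-1, against 42.5, 32.3 and 35.6 CPM in WT. None of these 3 genes, picked by adjusted p, had overlapping libraries, as was so for 36.0% of all genes tested. SWEET2 fell by 0.96 ± 0.14 (adjusted p = 0.00054). SWEET1 fell by 0.59 ± 0.10. Named after their values were seen, the other falls were the sucrose carrier gene SWEET13 (-1.37 ± 0.32), AtVEX1 (-2.34 ± 0.63) and the vacuolar fructose carrier genes SWEET16 (-0.59 ± 0.19) and SWEET17 (-0.28 ± 0.06). The calls of AtVEX1 and SWEET16 were lost in part of the alternatives, for AtVEX1 with an adjusted p of up to 0.0867 without brm-1 replicate 2, and 0.0574 without WT replicate 2 and 0.0644 without brm-1 replicate 3. For SWEET16 it reached 0.17 without WT replicate 1, 0.163 without brm-1 replicate 2, and 0.0626 to 0.0687 without brm-1 replicate 1 or 3 or WT replicate 3.

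Upstream sequences of the oppositely moving SWEET4 and SWEET2 are shown so that the word found in each can be read in place. Both are the 250 bases before the annotated start in TAIR10.1 (RefSeq), 5′ to 3′ on the strand of the gene, which is the minus strand in both. Capitals mark the G-box core CACGTG in SWEET4 (chr3:10409978-10410227) and AAACAGAG, the reverse complement of CTCTGTTT, a word bound by REF6, in SWEET2 (chr3:4959705-4959954). The pair does not stand for the called genes at large. There CACGTG was in 7.07% of promoters of rises and 9.7% of falls, and CTCTGTTT in 5.89% of rises and 3.55% of falls. Of 12 SWEET promoters 2 held CACGTG.
SWEET4: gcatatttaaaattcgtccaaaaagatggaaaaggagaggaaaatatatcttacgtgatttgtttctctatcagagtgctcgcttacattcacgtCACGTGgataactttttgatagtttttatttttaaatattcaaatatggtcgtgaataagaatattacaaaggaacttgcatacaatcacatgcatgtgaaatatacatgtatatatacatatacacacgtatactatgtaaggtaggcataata
SWEET2: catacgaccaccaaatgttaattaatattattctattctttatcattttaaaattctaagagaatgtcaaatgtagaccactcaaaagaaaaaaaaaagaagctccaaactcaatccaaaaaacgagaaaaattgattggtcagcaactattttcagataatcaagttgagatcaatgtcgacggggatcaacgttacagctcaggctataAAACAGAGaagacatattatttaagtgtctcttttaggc

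Other carriers were split between the directions. Nitrate and peptide transporters of the NPF and NRT2 families had 5 rises and 7 falls among 30 tested genes, and 8 rises without brm-1 replicate 1. PTR5, a dipeptide carrier, had 28.4, 29.9 and 28.3 CPM in brm-1, against 12.9, 13.2 and 11.6 CPM in WT, and rose by 1.20 ± 0.12 (adjusted p = 4.73e-05). PTR4 (0.58 ± 0.06) and AT3G16180 (0.61 ± 0.06) rose too, while NRT1.9, a nitrate carrier of the phloem, fell by 0.74 ± 0.07, AT3G21670 by 1.09 ± 0.12 and AT2G26690 by 0.36 ± 0.05. ABC transporters had 21 rises and 17 falls among 110 tested, which became 14 and 11 without WT replicate 2 and 15 and 11 without WT replicate 1. ABCB13 rose by 1.27 ± 0.18 and ABCG43 by 0.97 ± 0.13, whereas ABCA8 fell by 1.15 ± 0.14 and ABCG30 by 1.04 ± 0.14. In the nitrate assimilation list, 3 of 20 rose and 4 fell. All 6 members named by the rule lay within 0.30 of 0 on the log2 scale, with the nitrate sensor NRT1.1 at -0.21 ± 0.05 and the glutamate synthase GLU1 at -0.20 ± 0.03. Without WT replicate 1 no member of that list rose and 4 fell, with 5 rises and 3 falls without brm-1 replicate 1, 1 and 3 without brm-1 replicate 2, 1 and 5 without brm-1 replicate 3, and 1 and 3 without WT replicate 2.

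Genes of detoxification and specialised metabolism fell more often than they rose. Cytochrome P450 enzymes, which oxidise a great range of plant compounds, had 14 rises and 49 falls among 193 tested genes, and 3 rises against 18 falls of at least 2-fold. These counts moved by less than 1.5 times with any library left out. Besides CYP71A20, 2 genes are named after their values were seen. CYP78A9, known from seed and fruit growth, had 5.33, 6.55 and 3.91 CPM in brm-1, against 22.2, 17.3 and 18.2 CPM in WT, and CYP78A8 had 13.8, 15.3 and 16.4 CPM in brm-1, against 59.6, 35.8 and 43.2 CPM in WT. Neither overlapped between groups, as was so for 36.0% of all genes tested, which is no further support for genes picked by their values. They fell by 1.86 ± 0.19 (adjusted p = 5.25e-05) and 1.61 ± 0.21 (adjusted p = 0.000513). CYP81D4 fell by 0.69 ± 0.06, whereas CYP96A9 (1.02 ± 0.16) and CYP77A4 (0.78 ± 0.13), a gene of the cutin branch, rose. CYP82C2 fell by 2.25 ± 0.55, but its adjusted p of 0.0198 became 0.0571 without WT replicate 1, 0.0694 without brm-1 replicate 2 and 0.0559 without brm-1 replicate 3, with 0.0694 the highest over its alternatives.

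UDP-glycosyltransferases, which attach sugars to hormones and phenolics, had 5 rises and 17 falls among 59 tested, and 3 rises without brm-1 replicate 3 or WT replicate 3. UGT71B5 fell by 2.26 ± 0.33 and UGT71B1 by 0.48 ± 0.06. UGT84A3, a sinapate glucosyltransferase gene, had 34.9, 32.8 and 42.3 CPM in brm-1, against 76.3, 82.4 and 79.6 CPM in WT, and fell by 1.12 ± 0.10 (adjusted p = 5.25e-05). Rises were small, with UGT73B3 at 0.27 ± 0.05. MATE carriers, which export toxins and secondary metabolites, had 4 rises and 19 falls among 47 tested and a median log2 change of -0.23, against -0.00285 over all genes. AT3G26590 had 40.9, 34.5 and 37.3 CPM in brm-1, against 81.9, 80.9 and 78.1 CPM in WT, a fall of 1.09 ± 0.08 (adjusted p = 9.76e-06). AT1G33080 had 9.82, 10.3 and 8.6 CPM in brm-1, against 25.1, 28 and 28 CPM in WT. Both groups were tight and apart in these genes, which were picked by adjusted p. AT1G33080 fell 2.82-fold and AT5G38030 2.63-fold, each with an SE of 0.13 on the log2 scale. The MATE counts became 2 and 18 without brm-1 replicate 1, 2 and 14 without brm-1 replicate 3, and 2 and 13 without WT replicate 1. Berberine bridge-like oxidases had 2 rises and 5 falls among 18 tested, AT5G44400 falling by 0.87 ± 0.07. Leaving out any single library left 2 rises and 2 or 3 falls in that family, 2 falls without WT replicate 1 or 2.

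Terpene synthases, which build the skeletons of terpenoids, had 2 rises and 7 falls among 22 tested. The family was drawn from annotation words or symbols and leaves out THAS1 and BARS1, which are described below and also fell. GA2, the ent-kaurene synthase of gibberellin synthesis, had 55.5, 55.2 and 56.5 CPM in brm-1, against 33.2, 35.8 and 36.5 CPM in WT. It rose by 0.66 ± 0.06 (adjusted p = 2.02e-05). The cineole synthase TPS-CIN fell 4.27-fold (SE 0.36 on the log2 scale), AT3G29410 on the log2 scale by 1.60 ± 0.29 and the beta-amyrin synthase BAS by 0.85 ± 0.13. The family's falls numbered 3 without brm-1 replicate 2 or WT replicate 1, 4 without brm-1 replicate 3 and 5 without WT replicate 3, and its rises 1 without brm-1 replicate 2, brm-1 replicate 3 or WT replicate 3.

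Several falls lay side by side on the chromosomes. In Arabidopsis, enzymes of root triterpene pathways are known to be encoded in clusters of neighbouring genes. Runs of at least 4 neighbouring tested genes called in the same direction numbered 12 for falls and 5 for rises. Falls standing alone numbered 1585 and pairs of falls 232, with 1457 and 194 for rises. Of all tested genes 10.1% fell and 8.88% rose. Some runs held a noncoding locus beside a gene of the same value, such as AT2G37362 and ABCG2, both at -0.36. Whether such neighbours shared reads was not tested, so runs may be counted too long. The 7 groups shown were chosen after their values were seen. All 5 genes of the thalianol cluster on chromosome 5 fell. THAS1 (AT5G48010, 19456837 to 19461706), the thalianol synthase, had 79.1, 49.8 and 58.5 CPM in brm-1, against 150, 123 and 136 CPM in WT, and fell by 1.12 ± 0.21 (adjusted p = 0.00565). CYP708A2 (-0.93 ± 0.15) and CYP705A5 (-0.92 ± 0.13), the oxidases of the pathway, lay close to it. The acyltransferase genes AT5G47950 and AT5G47980 fell by 0.94 ± 0.23 and 0.80 ± 0.22, but were the weak calls of the cluster. It held 3 falls without brm-1 replicate 2, brm-1 replicate 3 or WT replicate 1, where AT5G47950 had an adjusted p of up to 0.0522 and AT5G47980 of up to 0.103, the highest over their alternatives. Without brm-1 replicate 1 or WT replicate 2, AT5G47980 alone was lost (0.0693 and 0.0596).

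The marneral and PEN3 clusters, also on chromosome 5, fell in their oxidases. CYP705A12 had 5.93, 3.91 and 7.43 CPM in brm-1, against 31.2, 16.3 and 24.7 CPM in WT, and fell by 2.07 ± 0.39 (adjusted p = 0.0041), and CYP71A16 fell by 1.41 ± 0.23. Beside the PEN3 synthase gene, CYP716A1 had 0.254, 1.18 and 1.37 CPM in brm-1, against 8.01, 5.32 and 8.32 CPM in WT, and fell by 2.97 ± 0.37 (adjusted p = 0.000189). CYP716A2 fell by 4.12 ± 0.64, a value of -6.33 without brm-1 replicate 3. AT5G36130 held 2 counts over the brm-1 libraries and 47 over the WT libraries, a ratio of 23 lower in brm-1 (95% exact interval 6.03 to 196, counting error only). Of all counts from 1 to 20 in the 6 libraries 56.9% were even, so single counts may not be independent fragments and such intervals may be too narrow. The synthase genes MRN1 and PEN3 themselves were not called.

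On chromosome 4, 7 of 9 tested genes around PEN1 and the baruol synthase BARS1 fell, among them CYP702A6 with 8.64, 4.73 and 7.23 CPM in brm-1, against 33.9, 26.5 and 30.9 CPM in WT (-2.14 ± 0.21, adjusted p = 6.44e-05). CYP705A4 (-1.32 ± 0.16), CYP702A5 (-1.04 ± 0.19) and the acyltransferase BIA1 (-1.43 ± 0.21) fell with it. PEN1 changed by -0.43 ± 0.13 and BARS1 by -1.97 ± 0.57, values of -0.29 and -1.21 without WT replicate 1, where neither was called (adjusted p = 0.153 and 0.166, the highest over their alternatives), and neither was called without brm-1 replicate 1 or 2. PEN1 was also lost without brm-1 replicate 3 (0.07), and BARS1 with limma-voom (0.0514) and in a fit of the 6 libraries alone (0.0706). Outside triterpenes, all 5 tested genes from CYP71A21 to CYP71A26 on chromosome 3 fell, by 0.29 ± 0.06 for CYP71A21 to 1.65 ± 0.40 for CYP71A24, the last not called without brm-1 replicate 2 (adjusted p = 0.0512, the highest over its alternatives). Of 8 tested neighbours on chromosome 1 that share the unknown domain DUF1262, 5 fell, and 3 without brm-1 replicate 1, brm-1 replicate 2 or WT replicate 1. Of 9 tested jacalin-type lectin genes on chromosome 3, which include the nitrile specifier NSP1 and the myrosinase-binding family, 6 fell. JAL31, which fell most, had 37.8, 31.6 and 35.2 CPM in brm-1, against 68.5, 65.4 and 66.6 CPM in WT (-0.94 ± 0.07, adjusted p = 5.18e-06). Only 3 lectin genes fell without brm-1 replicate 1 or 2. Root markers summed to 381 to 418 CPM in brm-1 and 429 to 478 CPM in WT, and their part in the triterpene falls was not tested.

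**Figure D3:**
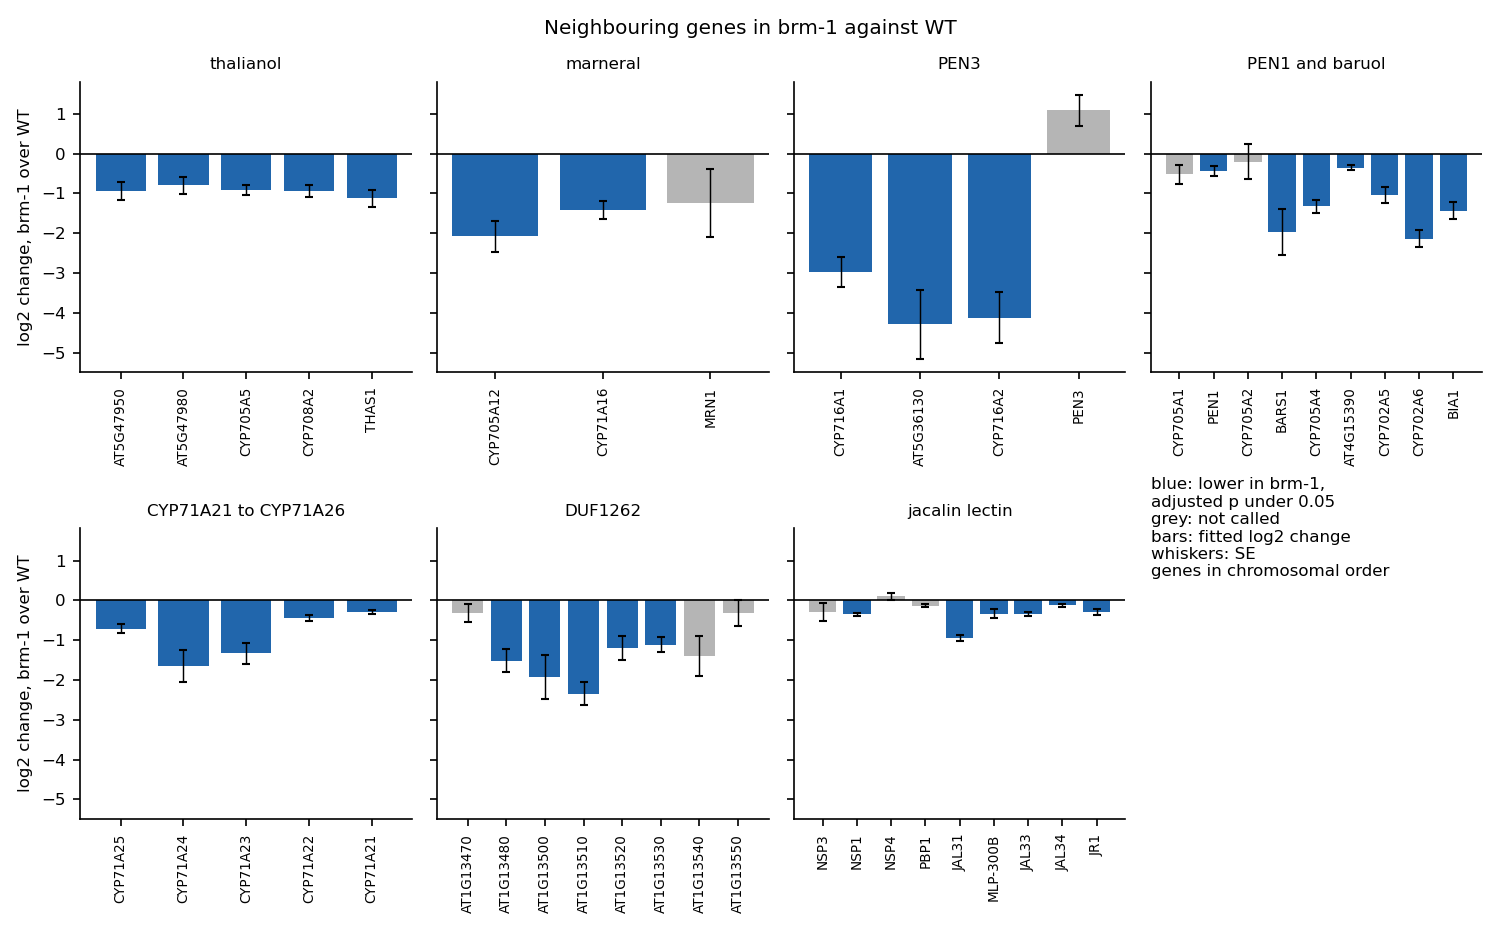
Fitted log2 change, brm-1 over WT, of the tested genes in 7 groups of neighbours, in chromosomal order, with SE as whiskers. Blue bars passed an adjusted p of 0.05 and grey bars did not. All 5 thalianol genes and all 5 CYP71A genes lie below 0, and the synthase genes MRN1 and PEN3 are grey.

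Intracellular immune receptors moved mostly downwards. Plant NLR proteins carry a nucleotide-binding domain and leucine-rich repeats and detect pathogen effectors. Of 94 tested receptors of the TIR class 5 rose and 27 fell, and of 46 of the coiled-coil class 2 rose and 14 fell. The median log2 change was -0.17 in the TIR class and -0.20 in the coiled-coil class, against -0.00285 over all genes, and no library left out moved any of these counts by more than 1.5 times. AT2G17050 (chromosome 2, 7410704 to 7415802) had 1.69, 1.73 and 1.17 CPM in brm-1, against 6.56, 9.45 and 8.41 CPM in WT, and fell by 2.39 ± 0.25 (adjusted p = 6.45e-05). RLM3, a resistance gene against fungi, had 152, 153 and 165 CPM in brm-1, against 206, 225 and 223 CPM in WT, and fell by 0.48 ± 0.05 (adjusted p = 0.000105). AT1G61300, of the coiled-coil class, had 34.5, 44.7 and 42.1 CPM in brm-1, against 77.7, 75.9 and 69 CPM in WT. The groups did not overlap in any of the 3, as in 36.0% of all genes tested. These genes were picked by adjusted p, so lack of overlap is no further support. AT1G61300 fell by 0.88 ± 0.08 (adjusted p = 3.38e-05). AT1G59780 (-1.29 ± 0.16), AT1G62630 (-0.67 ± 0.07) and TTR1 (-0.28 ± 0.03) fell as well. The rises were led by AT4G09420, with 23.5, 23.7 and 24.4 CPM in brm-1, against 10.1, 10.7 and 13.3 CPM in WT (1.07 ± 0.12, adjusted p = 7.81e-05), while the helper receptor gene ADR1 rose by 0.23 ± 0.05. Many NLR genes have near-identical neighbours, so reads of single members may have been shared or split in counting.

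The plant surface was described by a list of wax and cutin genes, in which 8 of 24 rose and 3 fell. CER1 (AT1G02205, chromosome 1, 418416 to 422579), which makes the alkanes of the cuticle, had 82, 89.8 and 77 CPM in brm-1, against 49.2, 54.1 and 43.9 CPM in WT, and rose by 0.76 ± 0.08 (adjusted p = 7.81e-05). CER3, its partner in alkane synthesis, had 115, 123 and 120 CPM in brm-1, against 91.3, 91.2 and 93.3 CPM in WT, and rose by 0.38 ± 0.04 (adjusted p = 3.74e-05). Both groups stood apart in both genes, which were picked by adjusted p, and WSD1 was among the 20 largest rises chosen above. The wax exporter genes ABCG11 (0.23 ± 0.04) and ABCG12 (0.21 ± 0.04), named after their values were seen, rose by smaller amounts. KCS1 (-0.19 ± 0.04) and CYP86A2 (-0.19 ± 0.04), a cutin hydroxylase gene, fell. Without brm-1 replicate 2 the list had 5 rises and 1 fall, with CYP86A2 at an adjusted p of 0.0512, the highest over its alternatives, and without WT replicate 1 it had 5 rises and 3 falls.

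The 250 bases upstream of CER1 are printed because CER1 and PORA, below, both hold the evening element, a word bound by clock factors. The sequence is chr1:418166-418415 of TAIR10.1 on the plus strand, and capitals mark AGATATTTT, the reverse complement of the evening element AAAATATCT.
CER1: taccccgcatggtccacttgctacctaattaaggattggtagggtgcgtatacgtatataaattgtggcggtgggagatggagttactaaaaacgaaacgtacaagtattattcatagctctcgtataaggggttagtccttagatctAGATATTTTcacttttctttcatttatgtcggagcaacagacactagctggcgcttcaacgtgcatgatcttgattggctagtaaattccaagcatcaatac

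Suberin, the barrier polymer of root endodermis, went the other way. Of 17 tested genes of suberin and the Casparian strip, 7 fell and none rose. FAR5, a fatty acyl reductase of suberin, had 21.6, 20.5 and 25.5 CPM in brm-1, against 41.2, 41.6 and 42.5 CPM in WT, and fell by 0.89 ± 0.12 (adjusted p = 0.000447). FAR4 had 30.1, 30.6 and 33.2 CPM in brm-1, against 54.4, 51.9 and 52.2 CPM in WT, a fall of 0.76 ± 0.11 (adjusted p = 0.000587). The other falls, smaller and with PER64 (-0.45 ± 0.11) the only other one given by the naming rule, were mostly lost without 1 library. The list held 2 falls without brm-1 replicate 2 or WT replicate 1 and 3 without brm-1 replicate 3. PER64 had an adjusted p of 0.0149, which became 0.069 without brm-1 replicate 2 and 0.0642 without WT replicate 1. The sums of root markers, which include PER64 and CASP1, did not overlap between the groups, at 381 to 418 CPM in brm-1 and 429 to 478 CPM in WT, and their part in the suberin falls was not tested.

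Cell wall families were mixed. GDSL lipases, many of which act on surface lipids, had 17 rises and 13 falls among 66 tested, with AT1G75900 rising by 0.83 ± 0.08 and AT2G03980 falling by 0.55 ± 0.09. Lipid-transfer proteins had 7 rises and 15 falls among 69. AT4G15160 had 15.5, 15.2 and 15 CPM in brm-1, against 42.9, 44.6 and 46.4 CPM in WT, and fell by 1.55 ± 0.10 (adjusted p = 2.24e-06). AT5G59330 held 2 counts over the brm-1 libraries and 114 over the WT libraries, a ratio of 55.9 lower in brm-1 (95% exact interval 15.1 to 467, counting error only). Its neighbour in name LTP4 went the other way, with 6.6, 8.28 and 6.16 CPM in brm-1, against 0.682, 1.19 and 0.362 CPM in WT (3.22 ± 0.47, adjusted p = 0.000566). The lipid-transfer counts became 3 and 11 without brm-1 replicate 2, 4 and 11 without WT replicate 1, 4 and 15 without brm-1 replicate 1 or WT replicate 2, and 4 and 14 without brm-1 replicate 3.

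Pectin methylesterases and their inhibitors, which set the charge and stiffness of pectin, had 4 rises and 15 falls among 61 tested, and 9 falls without brm-1 replicate 2 or 3. AT1G02810 fell by 0.65 ± 0.06 and AT5G09760 by 0.57 ± 0.06, while AT5G20740 rose by 1.19 ± 0.13. The class annotated as pectin lyase-like, pectate lyase or polygalacturonase had 10 rises and 11 falls among 58. AT1G65570 had 2.03, 1 and 1.86 CPM in brm-1, against 12.7, 10.6 and 16.1 CPM in WT, and fell 8-fold (SE 0.26 on the log2 scale, adjusted p = 1.82e-05), and QRT2, a polygalacturonase of organ separation, by 1.65 ± 0.19. Class III peroxidases had 3 rises and 14 falls among 58, and 1 rise without brm-1 replicate 3. AT2G38390 had 37.1, 30.9 and 32.9 CPM in brm-1, against 69.2, 72.9 and 67.4 CPM in WT, and fell by 1.05 ± 0.08 (adjusted p = 1.33e-05), while AT2G41480 rose 2.82-fold (SE 0.18 on the log2 scale). Cellulose synthases and related CSL genes had 3 rises and 9 falls among 36, with CSLB01 falling by 1.73 ± 0.22, CESA9 by 1.41 ± 0.19 and ATCSLB05 by 2.21 ± 0.44, and with 1 rise without brm-1 replicate 3 or WT replicate 1. The large class of alpha/beta hydrolases had 16 rises and 37 falls among 168. The fall of AT2G03550, with 12.8, 15.2 and 16 CPM in brm-1, against 44.6, 46.3 and 43.9 CPM in WT, was -1.62 ± 0.07 (adjusted p = 1.52e-07). Hydrolase counts became 9 and 23 without brm-1 replicate 2, 8 and 25 without brm-1 replicate 3, 7 and 23 without WT replicate 1, and 10 and 26 without WT replicate 3.

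Called genes of chlorophyll synthesis were all higher. Of 19 tested genes of chlorophyll synthesis 9 rose and none fell, and all 19 had a positive log2 change, with a median of 0.13. PORA (AT5G54190, chromosome 5, 21990864 to 21992814), the protochlorophyllide oxidoreductase best known from etiolated seedlings, had 29.9, 30 and 24.9 CPM in brm-1, against 8.52, 10.2 and 4.79 CPM in WT. It rose by 1.85 ± 0.25 (adjusted p = 0.000484), and its groups were far apart, in a gene picked by adjusted p. All other rises were under 1.5-fold, among them CHLI2 (0.28 ± 0.05) of the magnesium chelatase and HEME2 (0.21 ± 0.04), and, named after their values were seen, the chelatase activator GUN4 (0.26 ± 0.06) and HEME1 (0.20 ± 0.04). Without brm-1 replicate 2 or WT replicate 1, 5 genes rose. Leaf markers summed to 763 to 840 CPM in brm-1 and 739 to 788 CPM in WT, and their part in these small rises was not tested.

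The upstream 250 bases of PORA (chr5:21992815-21993064, minus strand, TAIR10.1) are shown for comparison with CER1, with the evening element in capitals.
PORA: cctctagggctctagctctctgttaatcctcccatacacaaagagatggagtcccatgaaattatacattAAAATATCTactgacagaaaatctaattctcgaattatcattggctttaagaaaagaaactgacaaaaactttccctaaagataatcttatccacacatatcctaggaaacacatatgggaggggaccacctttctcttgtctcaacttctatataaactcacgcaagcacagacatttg

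Among 15 tested genes of the plastid-encoded polymerase and its sigma factors, 4 rose and 2 fell, and 2 rose without brm-1 replicate 2 or WT replicate 2. SIG2 (0.21 ± 0.04) and PTAC12 (0.22 ± 0.05) rose, while SIGE, a sigma factor tied to light stress, had 49.1, 44.9 and 46 CPM in brm-1, against 76.5, 76.1 and 68.1 CPM in WT, and fell by 0.66 ± 0.06 (adjusted p = 2.02e-05). Carotenoid genes had 3 rises and 2 falls among 16, all small except NCED3, an enzyme of abscisic acid synthesis, at -1.01 ± 0.30. Its call (adjusted p = 0.0414) ended without any 1 library other than WT replicate 3, with 0.0545 to 0.14 in those settings. It also ended with the replicate block (0.0809), without a filter (0.0576) and without brm-1 ref6-1 replicate 3 (0.0528), a range of 0.00371 to 0.14 over the alternatives. Leaving out brm-1 replicate 2, brm-1 replicate 3, WT replicate 1 or WT replicate 2 left 2 rises and 1 fall in the carotenoid list, and leaving out brm-1 replicate 1 left 4 and 1.

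Light signalling genes fell more often than they rose. Of 29 tested photoreceptor and light signalling genes 4 rose and 7 fell. SPA proteins help the ubiquitin ligase COP1 to remove light-promoting factors. SPA3 had 75.8, 82 and 68.8 CPM in brm-1, against 127, 119 and 113 CPM in WT, and fell by 0.66 ± 0.06 (adjusted p = 3.59e-05), and SPA1 fell by 0.23 ± 0.03 (adjusted p = 0.000141). SPA4 (-0.27 ± 0.06), HYH (-0.50 ± 0.10) and the phototropin gene PHOT2 (-0.18 ± 0.03), named after their values were seen, fell as well. ELIP1, an early light-induced chloroplast protein, fell by 0.91 ± 0.13, and HFR1, a bHLH factor of shade responses, rose by 0.57 ± 0.11. Only 1 gene rose without brm-1 replicate 3 or WT replicate 1, and 2 rose without brm-1 replicate 2. In the B-box family of zinc-finger factors 3 of 27 rose and 7 fell. BBX17 had 64.8 CPM in every brm-1 library, against 40.3, 45.4 and 42.5 CPM in WT, and rose by 0.60 ± 0.05 (adjusted p = 1.61e-05). STH (-0.78 ± 0.11), BBX19 (-0.93 ± 0.16) and BBX18 (-0.78 ± 0.13) fell. The B-box counts became 5 and 5 without brm-1 replicate 1, 4 and 4 without brm-1 replicate 2 or WT replicate 2, and 3 and 4 without brm-1 replicate 3.

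Several families of developmental transcription factors had many called members. Homeobox HB genes had 11 rises and 11 falls among 49 tested. HB33 (AT1G75240, chromosome 1, 28241011 to 28242795), of the zinc-finger homeodomain class, had 69.8, 71.3 and 69.8 CPM in brm-1, against 38.6, 37.3 and 35.2 CPM in WT, and rose by 0.92 ± 0.07 (adjusted p = 5.06e-06). The other rises included its relatives HB31 (0.77 ± 0.12), HB28 (0.82 ± 0.14) and ZFHD1 (0.77 ± 0.20), named after their values were seen, the last not called without WT replicate 2 (adjusted p = 0.0595) or WT replicate 3 (0.065, the highest over its alternatives). HB17 (-0.88 ± 0.15) and HAT9 (-0.77 ± 0.12) of the leucine-zipper class fell, as did the homeodomain gene RPL (-0.37 ± 0.05). The HB counts became 8 and 6 without brm-1 replicate 2 and 9 and 7 without WT replicate 3.

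SPL factors, which drive the change from juvenile to adult growth, had 3 rises and 3 falls among 15. SPL3 had 15.2, 18.2 and 17.2 CPM in brm-1, against 8.18, 8.9 and 9.59 CPM in WT, and rose by 0.92 ± 0.10 (adjusted p = 6.51e-05). SPL4 (1.07 ± 0.16) and SPL8 (1.14 ± 0.16) rose with it, while SPL2 (-0.30 ± 0.06) and SPL11 (-0.55 ± 0.11) fell. TCP factors had 5 rises and 1 fall among 21, and 2 falls without brm-1 replicate 1. TCP15 rose by 0.62 ± 0.07, TCP5 by 0.39 ± 0.06 and TCP12, a brake on branching, by 2.35 ± 0.44, and TCP3 fell by 0.20 ± 0.04.

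Leaf growth and polarity genes had 9 rises and 3 falls among 29 tested, with no count moved by more than 1.5 times. KAN, which specifies the lower leaf side, had 77.1, 73.9 and 77.8 CPM in brm-1, against 59.1, 60.4 and 57.8 CPM in WT, and rose by 0.37 ± 0.04 (adjusted p = 7.36e-05). ANT, an AP2-type growth promoter, had 68, 69.1 and 63.1 CPM in brm-1, against 42.9, 45.7 and 47.8 CPM in WT, and rose by 0.56 ± 0.07 (adjusted p = 0.000173). YAB2 (0.41 ± 0.06) rose too, as did AFO (0.52 ± 0.08), also of the YABBY family, ETT (0.27 ± 0.06), ARF4 (0.35 ± 0.06) and the growth-regulating factor gene GRF4 (0.54 ± 0.12), which were named after their values were seen. KAN3 (-0.78 ± 0.08) and YAB5 (-0.44 ± 0.06) fell, so that members of the same class moved in opposite directions. The auxin response factors, of which ETT and ARF4 are members of both lists, had 6 rises and no fall among 16, all at 0.37 or less: ARF11 (0.37 ± 0.06), MP (0.34 ± 0.05), ARF6 (0.21 ± 0.03), ETT, ARF4 and ARF17, the last with an adjusted p of 0.00702 that DESeq2 gave as 0.0529, the highest over its alternatives. Without brm-1 replicate 3, 1 member fell. Trichome fate genes had 5 rises and 1 fall among 18, with MYB0, the initiator of trichomes, at 4.91, 6.55 and 5.37 CPM in brm-1, against 2.22, 2.39 and 1.81 CPM in WT (1.39 ± 0.19, adjusted p = 0.000421), and GL2 at 0.36 ± 0.06. The single fall was not called without brm-1 replicate 1, brm-1 replicate 2, brm-1 replicate 3 or WT replicate 3.

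Repressors of auxin response of the Aux/IAA family had 5 rises and 3 falls among 28, with IAA29 (1.17 ± 0.26) and IAA19 (0.75 ± 0.16) highest and IAA31 (-1.22 ± 0.27) and AXR3 (-0.32 ± 0.06) among the falls. Rises numbered 2 without brm-1 replicate 2 and 3 without brm-1 replicate 3 or any 1 WT library, and without brm-1 replicate 3 there were 5 falls. In the list for strigolactones, karrikins and branching 2 of 14 rose and 4 fell. AT1G07200 had 72.3, 73.5 and 72.8 CPM in brm-1, against 92, 90.6 and 96 CPM in WT, a change of -0.35 ± 0.04 (adjusted p = 0.000144). BRC1, the branching brake related to TCP12, rose by 1.55 ± 0.44 (adjusted p = 0.0275), not called without WT replicate 1 (0.0984), WT replicate 2 (0.0743) or brm-1 replicate 3 (0.11, the highest over its alternatives), nor with limma-voom (0.0714). The list had 2 rises and 1 fall without brm-1 replicate 2, 1 and 2 without WT replicate 1, and 1 and 3 without brm-1 replicate 3 or WT replicate 2.

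In the osmolyte list 5 of 20 rose and 3 fell, and no library left out moved the counts by more than 1.5 times. MIPS1 (AT4G39800, chromosome 4, 18469255 to 18472048), the main inositol phosphate synthase, had 72, 72.1 and 68.5 CPM in brm-1, against 111, 121 and 115 CPM in WT, and fell by 0.71 ± 0.05 (adjusted p = 3.07e-06). GolS1 (AT2G47180, chromosome 2, 19368798 to 19370478), a galactinol synthase that uses inositol for raffinose sugars, had 23.5, 21.8 and 23.3 CPM in brm-1, against 55, 48 and 46.6 CPM in WT, and fell by 1.13 ± 0.13 (adjusted p = 0.000139). MIOX4, which breaks inositol down, was among the largest rises, at 2.28 ± 0.54. The trehalose phosphate genes TPPB (0.56 ± 0.12), TPS5 (0.29 ± 0.06) and TPS1 (0.21 ± 0.05) rose. In the heat shock list 1 of 16 rose and 4 fell, with HSP101 (-0.42 ± 0.06), HSP90.1 (-0.40 ± 0.08) and HSF4 (-0.22 ± 0.05), and this became 0 and 3 without brm-1 replicate 2 or WT replicate 1 and 0 and 5 without brm-1 replicate 3.

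MIPS1 and GolS1 were the falling osmolyte genes with a G-box core, the word CACGTG bound by many bZIP and bHLH factors, so their upstream 250 bases are printed with every CACGTG in capitals. They are chr4:18472049-18472298 and chr2:19370479-19370728 of TAIR10.1, both on the minus strand. MIPS1 holds 3 copies, the first at base -142 from the start, and GolS1 holds 1 at -42.
MIPS1: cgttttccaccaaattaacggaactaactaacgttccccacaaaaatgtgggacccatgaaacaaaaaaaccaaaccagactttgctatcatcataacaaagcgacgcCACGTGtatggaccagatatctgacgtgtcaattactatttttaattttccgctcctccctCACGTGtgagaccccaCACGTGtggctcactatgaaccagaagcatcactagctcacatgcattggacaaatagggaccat
GolS1: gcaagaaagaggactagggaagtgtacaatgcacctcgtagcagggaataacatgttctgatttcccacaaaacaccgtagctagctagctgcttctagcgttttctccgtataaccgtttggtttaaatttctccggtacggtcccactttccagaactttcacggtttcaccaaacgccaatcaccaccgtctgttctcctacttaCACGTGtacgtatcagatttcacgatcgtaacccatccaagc

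Genes of DNA methylation and small RNA silencing had 5 rises and 4 falls among 28, none as large as 2-fold, with 3 rises without brm-1 replicate 2 or WT replicate 3. AGO7, the Argonaute of leaf polarity small RNAs, had 44.6, 43.5 and 38.3 CPM in brm-1, against 29.3, 30.7 and 27.8 CPM in WT, and rose by 0.53 ± 0.10 (adjusted p = 0.00247). The Dicer gene DCL1 rose by 0.19 ± 0.04 and DCL2 fell by 0.19 ± 0.04. The DNA demethylase genes moved in different directions, DML2 at 0.28 ± 0.04, DME at -0.11 ± 0.02 and DML3 at -0.65 ± 0.16.

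Some classes hardly changed, or held a lone large change. Of 265 tested ribosomal protein genes 2 rose and none fell, with a median log2 change of 0.00. The rises numbered 10 without brm-1 replicate 1 and 1 without WT replicate 1 or 3. Differences among the most abundant members may be compressed, as said above for very abundant transcripts. Of 44 histone genes 2 fell. HIS1-3 (AT2G18050), the linker histone of drought responses, had 10.3, 9.19 and 11.3 CPM in brm-1, against 40.7, 36 and 38.2 CPM in WT, and fell by 1.90 ± 0.14 (adjusted p = 5.06e-06). The other fall, AT5G10980 (-0.14 ± 0.04, adjusted p = 0.0448), was lost without any 1 library other than brm-1 replicate 3, and with DESeq2 (0.272), without a filter (0.059) and with only the groups compared (0.0706), a range of 0.0299 to 0.272 over the alternatives, and 1 histone gene fell without brm-1 replicate 1, brm-1 replicate 2 or WT replicate 1. Pentatricopeptide repeat proteins, which edit and stabilise organelle RNA, had 25 rises and 3 falls among 259, and 193 of them had a positive log2 change, with a median of 0.08. DYW1, an editing factor of the chloroplast ndhD transcript, stood apart from them with 5.08, 5.46 and 4.89 CPM in brm-1, against 22.8, 23.7 and 22.6 CPM in WT, a fall of 2.16 ± 0.15 (adjusted p = 4.34e-06). The rises of this family numbered 10 without brm-1 replicate 2, 13 without WT replicate 1, 11 without WT replicate 2 and 15 without WT replicate 3, with 2 falls in the first pair of settings and 3 in the others.

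Cyclins of types A, B and D had 3 rises among 28, CYCD3;3 by 0.29 ± 0.06 and CYCD6;1 by 0.74 ± 0.17, and 5 rises without brm-1 replicate 3, with 1 fall without WT replicate 2. Glutathione S-transferases had 5 falls among 47, GSTU24 by 0.34 ± 0.07 and GSTU14 by 0.82 ± 0.19. That family had 2 falls without brm-1 replicate 2 or 3, 2 rises and 6 falls without brm-1 replicate 1, and 1 and 2 without WT replicate 1. The jasmonate list had 1 fall among 23, AOC2 (-0.31 ± 0.06), and 2 without brm-1 replicate 1. Of 12 JAZ repressors JAZ4 alone fell, with 16.3, 13.3 and 11.2 CPM in brm-1, against 29.7, 27.4 and 29.6 CPM in WT (-1.08 ± 0.13, adjusted p = 0.000122), and 2 fell without brm-1 replicate 3. Phosphate starvation genes had 1 fall among 18, the phosphate exporter gene PHO1 (-0.35 ± 0.04). Root hair genes had 2 falls among 16, CSLD3 (-0.16 ± 0.03) and RHD2 (-0.44 ± 0.12, adjusted p = 0.0308, up to 0.12 over the alternatives), and CSLD3 as the only fall without brm-1 replicate 2, brm-1 replicate 3, WT replicate 1 or WT replicate 3. Of 8 regulators of the embryo and seed phase BBM fell, an AP2 factor of embryos and root tips, with 2.03, 2.46 and 2.05 CPM in brm-1, against 7.92, 9.09 and 7.87 CPM in WT (-1.92 ± 0.19, adjusted p = 3.89e-05), and 2 fell without WT replicate 3. None of 8 GH3 genes was called by edgeR, 4 had an unadjusted p under 0.05 (31.5% over all genes), and 2 rose without brm-1 replicate 1, 1 without WT replicate 2, and 1 fell without WT replicate 3. None of 15 chaperones of the endoplasmic reticulum was called by edgeR, 1 had an unadjusted p under 0.05, and 1 fell without brm-1 replicate 1.

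**Figure D4:**
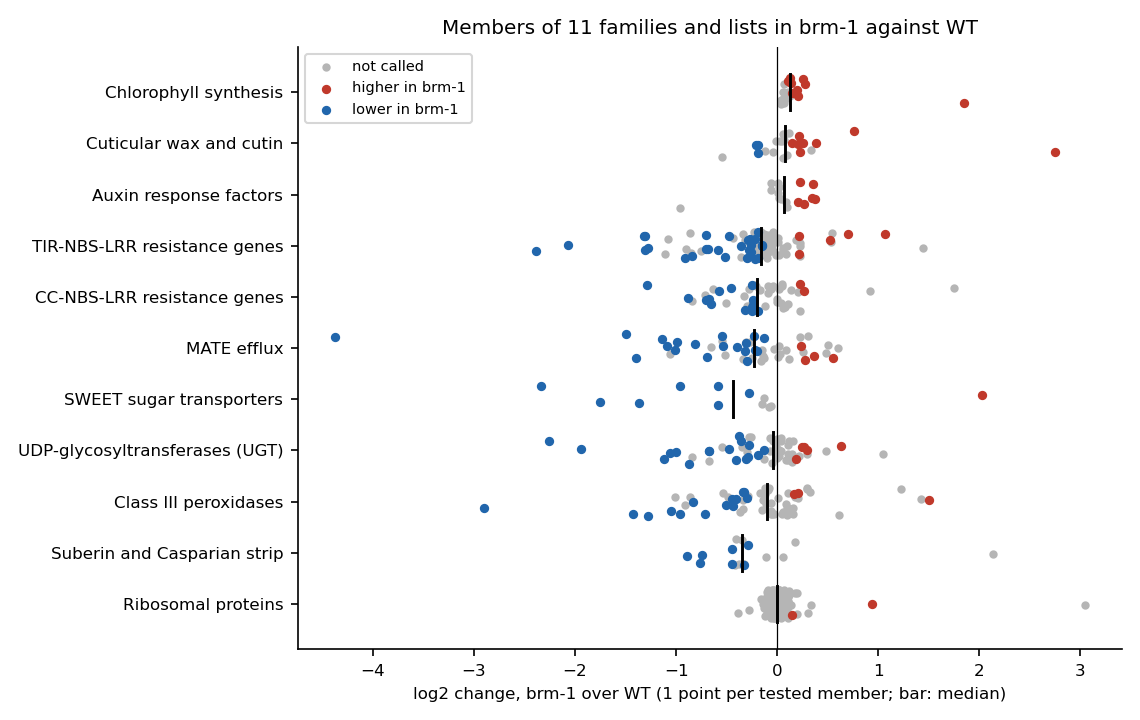
Fitted log2 change, brm-1 over WT, of every tested member of 11 families and lists, 1 point per gene, with the median as a bar. Red points were called higher and blue points lower in brm-1, and grey points were not called. Chlorophyll genes lie above 0 without exception (median 0.13), immune receptors of both classes lie mostly below 0 (medians -0.17 and -0.20), and ribosomal proteins crowd around 0.

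BRM loss was measured again where REF6 was mutant too, in brm-1 ref6-1 against ref6-1, which shares no library with the first comparison. In brm-1 ref6-1 replicates 1, 2 and 3 BRM was counted 60, 35 and 438 times, so replicate 3 stands apart, and counts are given with and without it. This comparison called 2638 genes (11.9%), 1189 higher (5.39%) and 1449 lower (6.56%). Of the 1960 genes that rose against WT, 759 rose here, which is 38.7% of the first list and 63.8% of the second. Of the 2233 that fell, 933 fell here, 41.8% of the first and 64.4% of the second. Both comparisons came from 1 fit and share its estimate of the spread. With each pair of groups fitted alone, 588 rises (32.9% and 65.1%) and 766 falls (36.2% and 64.9%) were shared. Without brm-1 ref6-1 replicate 3, 672 rises (34.9% and 61.7%) and 908 falls (41.0% and 64.7%) were shared. The log2 change had the same sign in 93.9% of the first rises and 91.6% of the first falls (92.9% and 91.4% without that library), and in 70.6% of all 22076 genes (70.2%). In brm-1 ref6-1 over ref6-1 51.1% of all genes had a positive and 48.9% a negative change. The median log2 change in brm-1 ref6-1 over ref6-1 was 0.19 for these rises and -0.27 for these falls, beside 0.33 and -0.45 in brm-1 over WT. Without that library it was 0.19 and -0.32. These genes were chosen by their call in brm-1 against WT, which enlarges their medians in that comparison. The medians therefore cannot compare the strength of BRM loss between the backgrounds.

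As a description, families differed in how many calls recurred in these plants, and a number in brackets gives the count without brm-1 ref6-1 replicate 3. All 5 rises of the TCP family were called again (5), as were 5 of 5 rises of the NPF and NRT2 family (4) and 6 of 8 rises of wax and cutin genes (5). Of 17 falls of glycosyltransferases 13 recurred (9), of 15 falls of pectin methylesterases 11 (9), and of 27 falls of TIR-class receptors 15 (14). Of 9 rises in chlorophyll synthesis 2 recurred (3), of 7 falls among B-box factors none (0), and of 49 falls among P450 genes 15 (15). None of the 5 thalianol genes and neither of the 2 marneral oxidases was called in brm-1 ref6-1 against ref6-1, with or without that library, and THAS1 stood at -0.31 and CYP705A12 at -0.74. All 7 called genes around PEN1 and BARS1 fell again (7). These differences between families were not tested.

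At the level of genes, the difference between the 2 log2 changes was called for 54 of 22076 genes (0.245%), and for 55 without brm-1 ref6-1 replicate 3. MAF5, a MADS-box gene related to FLC, had 10.1, 10 and 10.2 CPM in brm-1, against 2.3, 2.75 and 2.44 CPM in WT, but 7.13, 4.44 and 7.81 CPM in brm-1 ref6-1, against 14.4, 19 and 15.1 CPM in ref6-1. It rose in the first pair and fell in the second. Genes called in opposite directions numbered 10, of which SPA4, SNRK2-8, ACHT4, PMI1, AT2G19650 and SPS2F fell in brm-1 against WT and rose in brm-1 ref6-1 against ref6-1, as did MRD1 and HEI10, 2 genes that overlap. AT1G51405 and MAF5 went the other way. Without brm-1 ref6-1 replicate 3, 7 of the first rises fell and 15 of the first falls rose in these plants. The falls of SPS2F, a sucrose phosphate synthase gene (-0.19 ± 0.06, adjusted p = 0.0485), and of the kinase gene SNRK2-8 (-0.45 ± 0.12, adjusted p = 0.019) and the rise of AT1G51405 (0.34 ± 0.09, adjusted p = 0.0201) against WT were lost in part of the alternatives, with values of up to 0.184, 0.0781 and 0.0935.

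**Figure D5:**
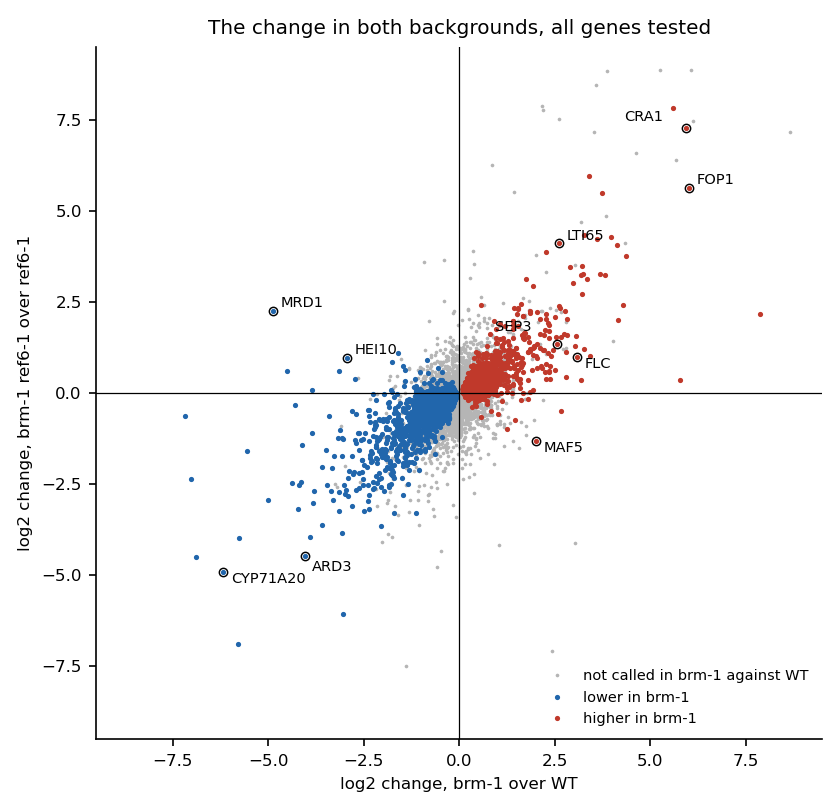
Log2 change of each tested gene for brm-1 over WT (horizontal) and for brm-1 ref6-1 over ref6-1 (vertical). Red genes were called higher and blue genes lower in brm-1 against WT, and grey genes were not called. Most coloured points share their sign on both axes (93.9% of the rises and 91.6% of the falls), while MAF5, MRD1 and HEI10 lie in the quadrants of opposite sign.

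Called genes were much like other genes in transcript length, exon number and chromosome. Expression level, given in bins below, entered the filter and the test. Median transcript length was 1805 bases among the rises, 1814.5 among the falls and 1699 over all genes tested, and the median exon number was 4 in all of them. Called shares ran from 18.2 to 21.0% over 5 bins of expression level, while the median size of the log2 change, over called and other genes alike, was 0.39 in the lowest bin and 0.06 in the highest. The 5 chromosomes had called shares of 18.4 to 19.9%. Within 1000 kb of BRM 17.7% of 474 genes were called.

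Short words of known regulatory proteins were counted on both strands in 250 bases before and 50 after each start. A match is a description and not a site. The G-box core CACGTG was in 7.07% of promoters of genes that rose, 9.7% of those that fell and 8.57% of all tested. The osmolyte list, with MIPS1 and GolS1 printed above, held it in 6 of 20 promoters (30.0%), and the endoplasmic reticulum chaperones, of which none was called, in 8 of 15 (53.3%). The word CTCTGTTT, seen above in SWEET2, was in 5.89% of promoters of rises, 3.55% of falls and 4.4% of all. The evening element AAAATATCT, seen in PORA and CER1, was in 3.23% of rises, 2.7% of falls and 2.96% of all. The site II core TGGGCC, a word common before genes of ribosomes and growth, was in 14.1% of rises, 9.66% of falls and 17.7% of all, and in 4.57% of falls of at least 2-fold. The GAGA repeat GAGAGAGA was in 10.9% of rises, 8.13% of falls and 8.59% of all.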

How the data were processed

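RNA of whole 14-day-old seedlings was sequenced as paired-end libraries, and the authors deposited a table of whole-number counts per locus for 12 libraries of 4 genotypes. Per the submitters' processing notes, reads were aligned with TopHat2 to TAIR10. How reads were counted, whether by strand and with or without duplicates is not given in the sources used here, so reads of overlapping genes on opposite strands cannot be told apart. Groups came from the sample titles.

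Counts were filtered with filterByExpr, scaled by TMM and tested with edgeR 4.0.16 (quasi-likelihood F test, robust, all 12 libraries in 1 fit, Benjamini-Hochberg adjustment over all genes tested, threshold 0.05) in R 4.3.3. The contrasts were brm-1 minus WT, brm-1 ref6-1 minus ref6-1, and the second minus the first. CPM values are per 1000000 counts after TMM scaling. The steps were tested on simulated data. Tables used Python 3.11.15 with pandas 2.3.3, and figures matplotlib 3.10.9. The results were also computed without a filter, with 1 CPM required in 6 libraries, with a replicate block, on only the groups compared, with a threshold of 0.01, with a 2-fold minimum, with limma-voom (limma 3.58.1), with DESeq2 1.42.0, with size factors of DESeq2 in the edgeR test, and with each of the 6 libraries left out in turn. Leaving out brm-1 ref6-1 replicate 3 was added after the data were seen.

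Names, positions and sequences came from the TAIR10.1 annotation of RefSeq, matched by locus tag for 28932 of 29420 loci and not for 488. The 54 families were drawn from annotation words or symbols and the 30 lists from gene symbols. Of the symbols, 19 had no matching locus and 8 matched 2 loci, and these 27 were left out, as were 41 loci that a pattern or synonym caught wrongly. Members and lists were chosen with earlier results of these data known. Genes were named by rule: BRM, the 20 largest rises and 20 largest falls among called genes whose groups did not overlap, which have a symbol and average 2 CPM or more, and up to 3 called members per direction, by adjusted p, of each family described. A family was described with at least 5 tested members and a called share of at least 1.5 times or at most 2/3 of that over all genes. Other genes are said to be named after their values were seen. Replicates of a group differed by 2.04 to 3.11 times the counting noise (chi-square per degree of freedom), so none was counted as a repeat of another. Exact Poisson intervals (95%) cover counting error only, and no source used here tells whether both mates of a pair were counted. The result of 1 family of the 84 is counted but not reported here.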

Additional observations from a re-analysis of the deposited data

Results flagged for a closer look

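For 11 named genes the change in brm-1 ref6-1 over ref6-1 differed from the change in brm-1 over WT when the difference itself was tested with edgeR. Each difference below is the change in the ref6-1 background minus the change in the WT background, on the log2 scale, with its SE. Over all genes the difference was called for 54 of 22076.

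FLC, the MADS-box repressor of flowering, rose by 1.00 in the ref6-1 background and by 3.08 in the WT background, a difference of -2.07 ± 0.18 (adjusted p = 0.00043). SEP3, a MADS-box gene of floral organs, rose by 1.34 and 2.55 in the same order, a difference of -1.21 ± 0.17 (adjusted p = 0.0148), which limma-voom did not call (0.0618, the highest over its alternatives). MAF5, related to FLC, changed by -1.32 in the ref6-1 background and by 2.01 in the WT background, a difference of -3.33 ± 0.27 (adjusted p = 0.00043).

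MRD1 and HEI10, a ubiquitin ligase of meiotic crossover, overlap on opposite strands of chromosome 1 (19963047 to 19964712, minus, and 19963267 to 19966952, plus), so their reads may be shared. MRD1 had 4.14, 15.9 and 14.3 CPM in brm-1 ref6-1, against 3.29, 1.85 and 2.01 CPM in ref6-1, and 2.03, 1.46 and 1.56 CPM in brm-1, against 50.6, 49.3 and 51 CPM in WT. The WT libraries stand apart from the libraries of all 3 mutants. The difference was 7.14 ± 0.62 for MRD1 (adjusted p = 0.00117) and 3.89 ± 0.34 for HEI10 (adjusted p = 0.00114).

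The light signalling genes SPA1, SPA3 and SPA4 changed by 0.01, -0.08 and 0.26 in the ref6-1 background and by -0.23, -0.66 and -0.27 in the WT background. Their differences were 0.24 ± 0.04 (adjusted p = 0.032), 0.58 ± 0.09 (adjusted p = 0.0234) and 0.53 ± 0.08 (adjusted p = 0.0228). The sigma factor gene SIGE differed by 0.52 ± 0.09 (adjusted p = 0.032). CYP707A2, which breaks down abscisic acid, differed by 1.03 ± 0.13 (adjusted p = 0.00587), with 0.01 in the ref6-1 background and -1.02 in the WT background. AT1G07200, of the strigolactone and karrikin list, differed by 0.35 ± 0.06 (adjusted p = 0.0355).

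Without brm-1 ref6-1 replicate 3, in which BRM itself was counted 438 times, 10 of the 11 differences were still called, and AT1G07200 was not (0.0716). AT1G07200 also missed the threshold without any 1 brm-1 or WT library (0.0618 to 0.0941, within 0.0275 to 0.0941 over all its alternatives). Without WT replicate 1, SPA1 (0.102), SPA3 (0.064), SPA4 (0.0743) and SIGE (0.0941) were lost. SPA1 was lost without WT replicate 2 (0.0763) or any 1 brm-1 library as well (up to 0.112). SPA3 was lost without WT replicate 2 (0.0563) or brm-1 replicate 1 (0.054), and SIGE without brm-1 replicate 2 (0.0931) or 3 (0.0859) or WT replicate 2 (0.0695). The values of FLC, MAF5, MRD1, HEI10 and CYP707A2 stayed under 0.0252 or at it in every alternative computed.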

How the results depend on the processing

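The number of genes called was 4193, with 1960 higher and 2233 lower in brm-1. DESeq2 called 3160, DESeq2 size factors within edgeR 4186, limma-voom 4371, a filter of 1 CPM 4138, no filter 4109 and a fit of only the groups compared 3903. At an adjusted p under 0.01 it was 2138 (941 higher, 1197 lower), and with a minimum of 2-fold 714 (232 and 482). Leaving out 1 library gave 2705 to 3846 calls, 1255 to 1763 higher and 1450 to 2083 lower, with the lowest value without brm-1 replicate 2. The same-numbered libraries of brm-1 and WT deviated together with correlations of 0.211, 0.0562 and 0.0343 for replicates 1, 2 and 3. Differently numbered libraries had -0.126 to 0.077. On the second principal component, WT replicate 1 (17.71) and brm-1 replicate 1 (21.31) lay apart from the other libraries (-17.32 to -4.06). Whether replicates numbered 1 shared a batch is not stated and was not tested. The main fit did not take the numbers as pairs, and a fit with a replicate block is given below. Genes called and moving the same way in both backgrounds numbered 1692, against 792 at 0.01 and 302 at 2-fold. They numbered 1332 with DESeq2, 1354 with only the groups compared, 1840 with the block and 1580 without brm-1 ref6-1 replicate 3. A replicate block gave 4437 calls (2064 higher, 2373 lower). Among named genes, 4 values changed sign, in 3 genes not called: MRN1 (-1.71 to 0.12 with 1 library left out, the last without WT replicate 3), CYP705A2 (0.07 with limma-voom, -0.62 to 0.28 with 1 library left out, the last without WT replicate 1) and NSP4 (-0.00 to 0.19 with 1 library left out, the first without WT replicate 2). Counts of called members moved by more than 1.5 times in 17 of 84 families with DESeq2, 8 with only the groups compared, 4 with the block, 0 to 2 with each other scaling or filter, 57 at 0.01, 77 at 2-fold and 10 to 36 without 1 library. The cause of these changes was not tested. Depth of 10308025 to 11860892 counts limits what can be said of genes with few counts. With 3 libraries a group, an exact permutation test cannot go below p = 0.1, so the tests rest on the spread pooled across genes.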

Other observations

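Families and lists whose called share lay near that of all genes (19.0%) still held single large changes. The genes given here were named after their values were seen. In the iron list 3 of 20 genes rose and 1 fell with edgeR, and 7 were called by DESeq2 or in a fit of only the groups compared. NAS2, a nicotianamine synthase that makes a metal chelator, had 13, 20.2 and 14.7 CPM in brm-1, against 7.24, 7.16 and 6.78 CPM in WT, and rose by 1.17 ± 0.18 (adjusted p = 0.000678). NAS1 (0.34 ± 0.06) and the ferric reductase gene FRO3 (0.34 ± 0.04) rose less. FRO2, the ferric reductase of the root surface, had 2.29, 1.36 and 3.03 CPM in brm-1, against 6.99, 7.8 and 5.88 CPM in WT. Its groups did not overlap, as in 36.0% of all genes tested, and it fell by 1.63 ± 0.28 (adjusted p = 0.00155). IRT1, the root iron carrier, held 8, 9 and 5 counts in brm-1 and 0, 1 and 0 in WT, and was not called (adjusted p = 0.154). Root markers summed to 381 to 418 CPM in brm-1 and 429 to 478 CPM in WT, and their part in these values was not tested.

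In the ethylene list 5 of 23 rose and none fell, with 3 rises without brm-1 replicate 3, WT replicate 1 or WT replicate 3. HLS1, an acetyltransferase-like gene of the apical hook, had 30.3, 28.7 and 24.6 CPM in brm-1, against 11.8, 10.6 and 12.2 CPM in WT, and rose by 1.27 ± 0.13 (adjusted p = 6.1e-05). Lignin genes had 5 falls and no rise among 18, but 2 falls without WT replicate 1 and 3 without WT replicate 3, without brm-1 replicate 2 or with DESeq2. 4CL3, a coenzyme A ligase of the phenylpropanoid path, had 33.6, 28.4 and 25.9 CPM in brm-1, against 45.1, 43 and 45.2 CPM in WT (-0.60 ± 0.10, adjusted p = 0.00138). Vascular genes had 5 rises and no fall among 19, with 2 rises without brm-1 replicate 2 and 3 without WT replicate 2, without WT replicate 3, with DESeq2 or with only the groups compared. CVP2, a phosphatase gene of vein patterning, rose by 0.43 ± 0.07 and the homeobox gene HB-8 by 0.23 ± 0.03.

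Of 16 other chromatin remodelling ATPases 1 rose and 3 fell. CHR23, of the same SWI/SNF class as BRM, fell by 0.30 ± 0.05 (adjusted p = 0.00131), and RAD54, of DNA repair, rose by 0.32 ± 0.07 (adjusted p = 0.00789).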
